A study of Bos taurus with 18 samples.

Results

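*UGT2B17* (ENSBTAG00000039991) and *EPHX2* (ENSBTAG00000015241) are 2 of the 24616 genes in the deposited expression table of ruminal papillae, and both were found by identifier. Papillae, the leaf-like folds that line the rumen, were taken from 18 multiparous, lactating Holstein cows slaughtered after 14 weeks of feeding. Every cow received the same concentrate (55% of dry matter) and corn silage (15%), and 6 cows each were given one of 3 forages: alfalfa hay with some Chinese wild rye hay (AH, labelled AL, 23% and 7% of dry matter), corn stover (CS, 30%) or rice straw (RS, 30%). Values are CPM, the reads of a gene scaled to the same total of reads on annotated genes in every cow, from between 16099131 and 32252177 such reads per cow. The cows are separate animals, and the comparisons are between diets that differ in forage, with AH holding a mixture of hays. By the study's account the diets also differed in energy density, crude protein, particle size and volatile fatty acids of the rumen. These cannot be told apart from the forage here. The ages of the cows are not given in the sources used here. Of the markers listed for keratinocytes, the cells that form this epithelium, only *DSG1* could be paired with a row of the table. *DSG1* was above 0 in every cow, from 3.67 to 101 CPM, and the labelled tissue could not be checked further. The study names rumen papillae, whereas the extraction text of the labels names rectal tissue, and which holds was not tested.

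UDP-glucuronosyltransferases join glucuronic acid to small fat-soluble molecules such as steroids, bile acids, drugs and plant phenols, so that these become water-soluble and can be excreted. *UGT2B17* belongs to the UGT2B subfamily, whose human members are known for the conjugation of steroid hormones. *EPHX2* encodes soluble epoxide hydrolase, which adds water to epoxides of fatty acids, signalling lipids made from arachidonic and linoleic acid by cytochrome P450 enzymes, and turns them into diols. Both reactions belong to the handling of lipids and foreign compounds, and the rumen epithelium meets feed-derived molecules before the liver does.

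How each gene came to be listed limits what its comparison can show. The study's own list of genes that differ between diets, made on these same cows, holds *UGT2B17* for RS vs. CS and *EPHX2* for AH vs. RS. The values of these genes in those comparisons are therefore not independent evidence of a difference. The same list is the only source of gene symbols used, so the other genes given below by symbol with their values, markers included, also differed between diets in the study's own test on these cows. Across all 3 comparisons each gene was tested by limma over 13284 genes and by a two-sided exact permutation test over the 924 relabellings of 6 cows against 6, which allows no p below 0.0022. Log2 ratios below are ratios of arithmetic mean CPM with a standard error (SE) from the spread between cows, unless said otherwise.

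*UGT2B17* was highest on CS, close behind on AH and lowest on RS, with wide spread within each diet. In the 6 CS cows, in order of their number, it stood at 105, 35.7, 99.9, 85.4, 70.6 and 104 CPM. In the AH cows it was 67.5, 12.7, 104, 74.0, 102 and 52.4 CPM, and in the RS cows 35.8, 18.3, 19.4, 61.5, 56.2 and 33.9 CPM. The highest RS cow thus lay below 5 of 6 CS cows, while the second CS cow lay among the RS cows, and the AH cows spanned nearly the whole range of the 18. The lowest value of all, 12.7 CPM, came from the second AH cow. Means were 83.4 ± 26.9 CPM (SD, n = 6) on CS, 68.8 ± 34.1 on AH and 37.5 ± 18.1 on RS.

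**Figure D1:**
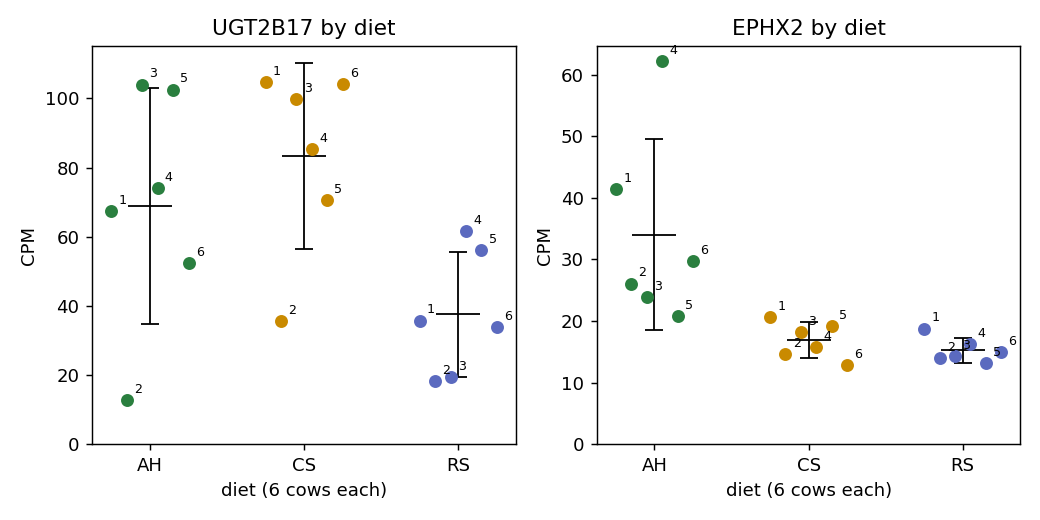
CPM of *UGT2B17* (left) and *EPHX2* (right) in each of 18 cows by diet, with replicate numbers beside the points; black lines are the mean and the SD of 6 cows. *UGT2B17* overlaps between all diets, whereas the lowest AH cow of *EPHX2* (20.8 CPM) is just above the highest CS cow (20.6 CPM) and above every RS cow.

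In RS vs. CS the mean of *UGT2B17* was 2.22-fold lower on RS, a log2 ratio of -1.15 (SE 0.34). An RS cow exceeded a CS cow in 3 of 36 pairs of cows, and 3 RS cows lay below every CS cow. The exact permutation p was 0.0108, in a comparison in which 0.647% of all tested genes were lower on RS at an exact p under 0.05. A fall of more than 2-fold on RS was found for 48 genes, or 0.361%. After Benjamini-Hochberg adjustment over all genes the limma p was 1.00 (unadjusted p = 0.0113), and *UGT2B17* had rank 31 of 13284 by that p. The share of genes called by limma in RS vs. CS was 0.0%, with 171 genes at an unadjusted p under 0.05. On reads recovered from the CPM, edgeR's quasi-likelihood test and DESeq2 called 0 genes as well, with 245 and 291 at an unadjusted p under 0.05. The 171, 245 and 291 genes are each fewer than chance alone gives on average at that threshold over 13284 genes. The 95% interval of the difference in mean log2(CPM + 0.5) ran from -2.10 to -0.30.

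In AH vs. RS *UGT2B17* was 1.83-fold higher in mean CPM on AH (log2 ratio 0.88, SE 0.41). Here 4 of 6 AH cows lay above every RS cow and the second AH cow lay below all of them. An AH cow exceeded an RS cow in 28 of 36 pairs. The exact permutation p was 0.0823 and the adjusted p from limma 1.00, so neither test called a difference. Without the second AH cow the log2 ratio was 1.09 and the exact p 0.0130. The interval of the difference on the log2(CPM + 0.5) scale, -0.14 to 1.66, covered both 0 and more than 2-fold.

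For AH and CS, neighbours in the order of *UGT2B17* means, neither test called a difference. The log2 ratio in AH vs. CS was -0.28 (SE 0.35, exact permutation p = 0.437, adjusted p from limma 1.00). It shrank to -0.06 without the second AH cow. With an interval from -1.35 to 0.45 on the log2(CPM + 0.5) scale, these cows leave room for a level 2-fold lower on AH.

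*EPHX2* showed another order, with AH apart from both other diets. The AH cows had 41.4, 26.1, 23.9, 62.2, 20.8 and 29.8 CPM, the CS cows 20.6, 14.7, 18.2, 15.7, 19.2 and 12.8 CPM, and the RS cows 18.8, 14.01, 14.3, 16.2, 13.2 and 14.9 CPM. Every AH cow was therefore above every CS and every RS cow, but by a margin of only 0.200 CPM between the fifth AH cow and the first CS cow, and of 2.05 CPM towards the highest RS cow. Counting error alone is larger than the first of these gaps, since the 432 reads of the fifth AH cow give a 95% Poisson interval of 18.9 to 22.9 CPM. Cows fed AH averaged 34.0 ± 15.5 CPM (SD, n = 6), those fed CS 16.9 ± 2.95 and those fed RS 15.2 ± 2.01.

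In AH vs. RS the mean of *EPHX2* was 2.23-fold higher on AH (log2 ratio 1.16, SE 0.28). The exact permutation p was 0.0022, the smallest the design allows, and 0.0753% of all tested genes were higher in every AH cow than in every RS cow. An exact p under 0.05 with AH higher was found for 1.36% of genes, and a rise of more than 2-fold for 0.73%. Limma gave an unadjusted p of 1.8e-04, rank 7 of 13284, and an adjusted p of 0.336, so *EPHX2* was not called, where 0.00753% of genes were. DESeq2 on the recovered reads did call it (log2 fold change 1.14, adjusted p = 0.0261), as it did 0.0602% of genes, while edgeR's quasi-likelihood test gave an adjusted p of 0.536. The 95% interval from limma on the log2(CPM + 0.5) scale was 0.57 to 1.51.

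In AH vs. CS, a comparison for which the study does not list *EPHX2* but which uses the same AH cows, the mean was 2.02-fold higher on AH (log2 ratio 1.01, SE 0.29). All 36 pairs of cows were higher on AH (exact permutation p = 0.0022), as for 0.0828% of tested genes. An exact p under 0.05 with AH higher was found for 1.45% of genes, and a rise of more than 2-fold for 0.941%. *EPHX2* lay only just above that 2-fold limit, and its log2 ratio of medians was 0.72, below it. The adjusted p was 0.998 from limma (unadjusted p = 7.1e-04, rank 9), 0.910 from edgeR and 0.138 from DESeq2. These tools called 0.00753%, 0.00753% and 0.0376% of genes. The interval of the difference in mean log2(CPM + 0.5) was 0.43 to 1.38. When the CPM were rescaled by TMM factors, which discount a few very abundant genes, the first CS cow stood at 24.6 and the fifth AH cow at 19.9, and 3 of 6 AH cows remained above every CS cow (exact permutation p = 0.0130). All 6 AH cows stayed above every RS cow on that scale.

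Against both other diets at once, 2 of the tested genes (0.0151%) were higher in all 6 AH cows than in all 12 cows fed CS or RS. One was *EPHX2*, by the margin of 0.200 CPM towards CS, and after TMM scaling only 3 of 6 AH cows were above every CS cow. AH vs. RS is also the comparison that placed *EPHX2* in the study's list. The other gene, ENSBTAG00000016061, has no symbol in the tables used and is named because of its values, with means of 14.4 CPM on AH, 6.71 on CS and 8.12 on RS.

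The mean of *EPHX2* in RS was 0.90 times that in CS (log2 ratio -0.15, SE 0.13). Neither diet stood apart, and the exact permutation p was 0.286 with an adjusted p of 1.00 from limma. The interval of -0.61 to 0.34 on the log2(CPM + 0.5) scale does not reach a 2-fold difference in either direction.

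**Figure D2:**
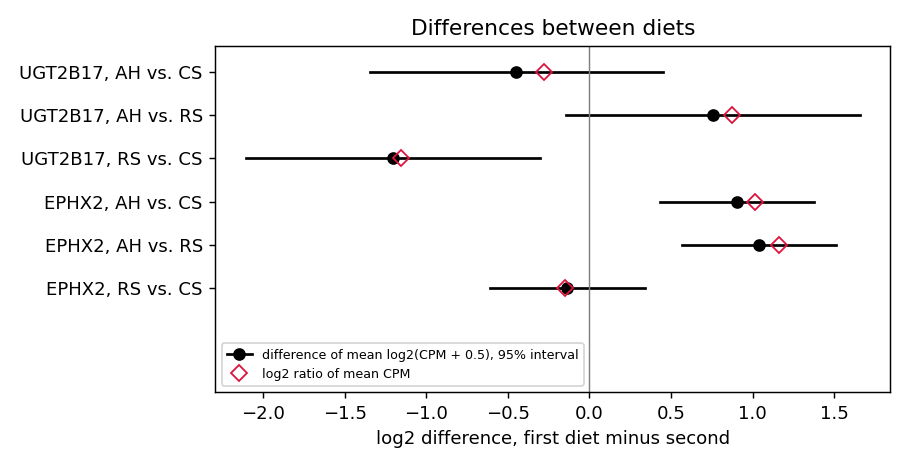
Difference between diets for both genes, first diet minus second; dots and lines are the difference in mean log2(CPM + 0.5) with its 95% interval from limma, diamonds the log2 ratio of mean CPM. The intervals of *UGT2B17* in RS vs. CS (-2.10 to -0.30) and of *EPHX2* for AH against CS (0.43 to 1.38) and against RS (0.57 to 1.51) leave out 0, before adjustment for the number of genes.

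The spread between cows, which includes counting error, differed by gene and diet. A cow had 237 to 3077 reads of *UGT2B17* and 236 to 1355 of *EPHX2*, so that counting alone would give a coefficient of variation of 1.80% to 6.50% and 2.72% to 6.51%, respectively. The observed coefficients for *UGT2B17* were 49.6% on AH, 32.2% on CS and 48.3% on RS. For *EPHX2* they were 45.6% on AH, but 17.5% on CS and 13.2% on RS. On the log2(CPM + 0.5) scale the SD within diets was 0.84 for *UGT2B17*, larger than that of 89.6% of all tested genes, and 0.38 for *EPHX2*, larger than that of 30.7%. The SD of *EPHX2* in AH, 0.58, was larger than that of 74.5% of genes in AH, and its SD in RS, 0.18, exceeded that of 5.96% of genes in RS.

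The high end of *EPHX2* in AH rested mainly on the fourth cow, with 62.2 CPM, and the first, with 41.4 CPM. Without the fourth AH cow the log2 ratio was 0.75 against CS, in place of 1.01, and 0.90 against RS, in place of 1.16, below 2-fold in each, and the exact permutation p was 0.0043, the smallest that 5 cows against 6 allow. With any other single cow left out, the ratios lay above these. Against CS the log2 ratio was also below 1, hence below 2-fold, without AH cow 1 (0.95). Without CS cow 2, 4 or 6 it was 0.97, 0.99 and 0.94. With TMM scaling, edgeR and DESeq2 it was 0.98, 0.98 and 0.97. Leaving out any of the remaining AH or CS cows in turn gave 1.03 to 1.12. Against RS, only leaving out the AH cow with 62.2 CPM brought the ratio of means below 2-fold. For *UGT2B17* in RS vs. CS the log2 ratio stayed between -1.35 and -1.01 and the exact p between 0.0043 and 0.0216 with single cows left out in turn.

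**Figure D3:**
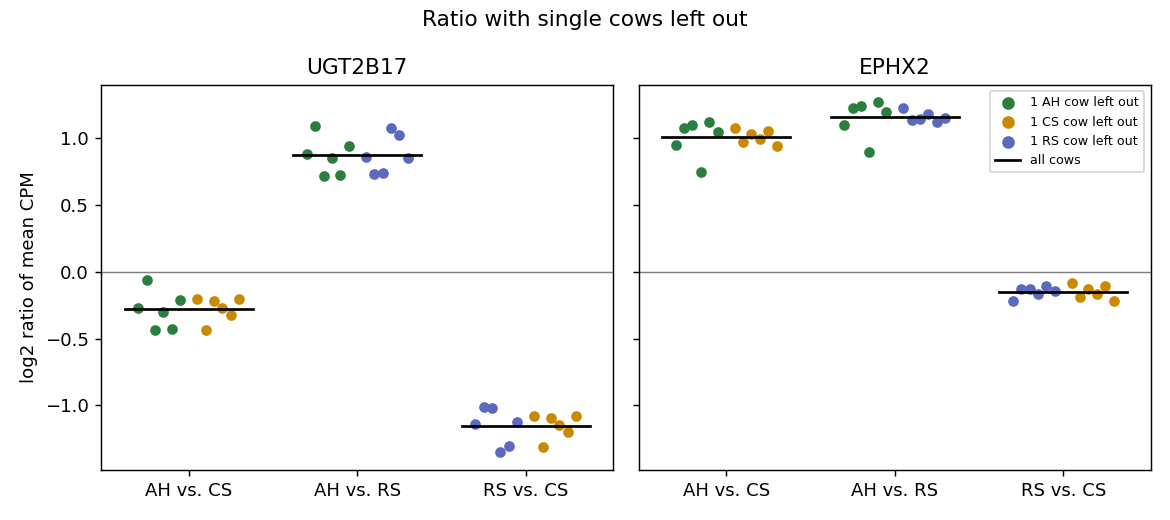
Log2 ratio of mean CPM with each cow left out in turn, for *UGT2B17* (left) and *EPHX2* (right); colours give the diet of the cow left out and black bars the ratio with all cows. The second AH cow moves *UGT2B17* in AH vs. CS to -0.06, and the fourth AH cow moves *EPHX2* to 0.75 against CS and 0.90 against RS.

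No relation between the levels of the enzyme genes was detectable across cows. Over 18 cows Pearson's r of log2(CPM + 0.5) was 0.17 (permutation test, p = 0.509) and Spearman's rho 0.19 (permutation p = 0.441). With diet means removed, r was 0.11 and rho -0.04 (permutation p = 0.661 and 0.874). Without the second AH cow and the second RS cow, those farthest from the median of *UGT2B17*, r was 0.24 over 16 cows (permutation p = 0.379). For the 6 cows of AH, CS and RS taken alone, r was 0.06, 0.24 and 0.19 (exact permutation p = 0.926, 0.692 and 0.760). This was 1 of 3 relations computed, and the Benjamini-Hochberg adjusted p over the 3 was 0.547 for the pooled r and 0.775 for rho. Here and below, this adjustment covered the 3 relations within one setting and one coefficient. It did not cover the several settings, or r beside rho. The fourth AH cow, highest in *EPHX2*, had rank 7 of 18 in *UGT2B17*, and the second AH cow, lowest in *UGT2B17*, had rank 4 in *EPHX2*.

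The genes whose pattern was most like that of each enzyme were sought over the 18 cows, by Pearson's r of log2(CPM + 0.5) after the mean of each diet was removed. Since they were picked for their r among 13283 genes, the values are descriptions without a test. Genes with a symbol were drawn from 73 only. For *UGT2B17*, r exceeded 0.7 for 2 genes and was below -0.7 for 14. The nearest were ENSBTAG00000012945 at 0.77 (rho 0.58) and ENSBTAG00000005799 at 0.72 (rho 0.55), neither with a symbol in the tables used. Among genes with a symbol, *PADI1*, whose product converts arginine of proteins to citrulline, came first at 0.57 (rho 0.44), and its r fell to 0.30 without the second AH and the second RS cow. *TGM2*, a transglutaminase gene, followed at 0.36 and the aminopeptidase gene *ENPEP* at 0.31.

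*DSG1*, which encodes a desmosomal cadherin of the upper layers of squamous epithelium, was the most opposite named gene to *UGT2B17*, at rank 4 from the bottom of all 13283 genes, with r = -0.73 and rho = -0.76. With diet means kept, r over the 18 cows was -0.50 and rho -0.48. The sign was the same within each diet (r = -0.75 for AH, -0.57 for CS, -0.80 for RS). With diet means removed, r was -0.62 without the second AH and the second RS cow. The lowest cow for *UGT2B17*, at 12.7 CPM, had 68.5 CPM of *DSG1*, and the fifth AH cow had 102 CPM of *UGT2B17* and 6.46 CPM of *DSG1*. The highest *DSG1*, 101 CPM, was in the sixth AH cow, whose *UGT2B17* of 52.4 CPM was below the median of its diet. Next in order were *Metazoa_SRP*, a signal recognition particle RNA, at -0.52 and *S100A8*, a calcium-binding protein gene, at -0.45. Among RS cows alone the sign turned for *TGM2* (-0.12), *ENPEP* (-0.25) and *Metazoa_SRP* (0.26).

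For *EPHX2*, 20 genes had an r over 0.7 and 13 an r below -0.7. ENSBTAG00000007031 at 0.80 (rho 0.78) and ENSBTAG00000012863 at 0.77 (rho 0.75) were nearest and lack a symbol. The named gene most like it was *SLC14A1*, a urea transporter gene of the rumen epithelium, at 0.58 (rho 0.48), with r = 0.73 for AH, 0.25 for CS, 0.65 for RS. *SLC14A1* reached 1287 CPM in the fourth AH cow, the highest in *EPHX2*, and its r was 0.45 without the first and the fourth AH cow. *ID1*, a regulator of differentiation, stood at 0.35 and *FABP4*, a fatty acid binding protein gene, at 0.33. Most opposite were *IGLL1*, an immunoglobulin light chain gene, at -0.67, the antimicrobial peptide gene *LAP* at -0.63 and *AIF1*, a gene of macrophages, at -0.59. Without the first and the fourth AH cow these 3 values were -0.46, -0.42 and -0.35. Their sign was not the same in every diet, as r with *EPHX2* was 0.14 for *IGLL1* and 0.67 for *LAP* among RS cows and 0.19 for *AIF1* among CS cows. For *FABP4* it was -0.03 among CS cows.

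**Figure D4:**
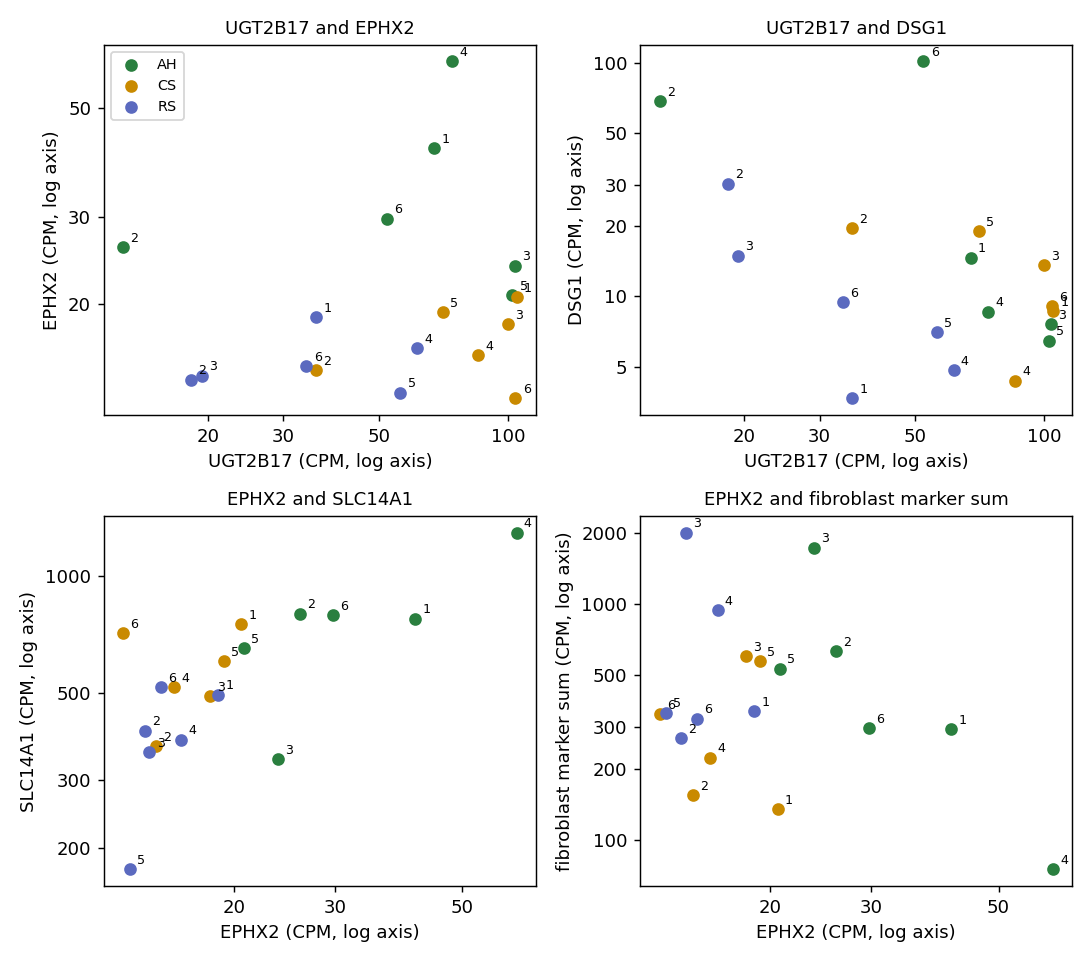
CPM of 18 cows on log axes, coloured by diet and numbered by replicate: *UGT2B17* with *EPHX2*, *UGT2B17* with *DSG1*, *EPHX2* with *SLC14A1*, and *EPHX2* with the summed CPM of 7 fibroblast markers. *UGT2B17* and *EPHX2* show no shared order (r = 0.17). *DSG1* tends to be low where *UGT2B17* is high (r = -0.50 with diet means kept, as plotted, and -0.73 with them removed). The fourth AH cow combines the highest *EPHX2* (62.2 CPM) with the lowest fibroblast sum (74.9 CPM).

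In bulk tissue, fewer cells of a type and less RNA per cell cannot be told apart, so markers of other cell types were set beside the enzymes. Of 15 fibroblast markers 7 could be paired, none was at 0 in any cow, and their summed level ran from 74.9 to 1729 CPM with AH (median 414), from 135 to 599.8 with CS (median 282) and from 268 to 1999 with RS (median 348). The fourth AH cow had the lowest sum of the 18. In AH *EPHX2* and the fibroblast sum had r = -0.86 and rho = -0.83 (exact permutation p = 0.0292 and 0.0583, adjusted over the 3 relations 0.0875 and 0.175). Over all 18 cows r was -0.32 and rho -0.07 (permutation p = 0.194 and 0.775). With diet means removed, r was -0.53 and rho -0.32 (permutation p = 0.0242 and 0.196, adjusted over the 3 relations 0.0725 and 0.589). Over the 16 cows left without the first and the fourth AH cow, diet means kept, r was 0.14 (permutation p = 0.594). Within CS and RS r was 0.09 and -0.02 (exact permutation p = 0.853 and 0.956).

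Of 14 leukocyte markers only *IGLL1* and *AIF1* could be paired, and none was at 0. Their summed level ranged from 10.2 to 274 CPM with AH, from 71.6 to 171 with CS and from 169.8 to 514 with RS. *AIF1* was at 16.4 ± 7.79 CPM (SD, n = 6) on AH, 35.1 ± 7.55 on CS and 34.2 ± 5.40 on RS, with 5 of 6 AH cows below all cows of each other diet. Its AH cows were low where those of *EPHX2* were high (exact permutation p = 0.0065 against CS and 0.0043 against RS, adjusted p from limma 0.580 and 0.399). The study had already listed *AIF1* as lower on AH in these cows, which is why it has a symbol here. Its count of cows and its p are therefore not independent evidence of a difference. *IGLL1* was above every CS cow in all 6 RS cows, opposite to *UGT2B17* in RS vs. CS, with 213 ± 128 CPM against 94.2 ± 44.3. Such an absence of overlap was found for 0.0452% of genes in that direction. The margin was small, with 143.4 CPM in the lowest RS cow and 142.9 CPM in the highest CS cow. Limma did not call *IGLL1*, which has a symbol here because the study listed it as differing in these cows. No relation of *UGT2B17* to the fibroblast sum was detectable over 18 cows (r = -0.15, rho = -0.11, permutation p = 0.547 and 0.651, adjusted over the 3 relations 0.547 and 0.775). *LYVE1*, the 1 marker paired of 8 for endothelium, was at 23.2 ± 19.2, 12.2 ± 7.26 and 28.5 ± 25.7 CPM for AH, CS and RS, and above 0 in every cow. Of 7 hepatocyte markers *TTR* and *AHSG* could be paired, and their mean summed level was highest on AH, as that of *EPHX2* was, with 26.5 ± 25.3 CPM (range 6.01 to 74.3) against 12.1 ± 5.90 on CS (2.87 to 20.05) and 9.72 ± 4.69 on RS (4.30 to 18.03). Cow by cow the parallel did not hold within AH. The fifth AH cow had the highest sum and the lowest *EPHX2* of its diet (20.8 CPM). The fourth, with the highest *EPHX2* (62.2 CPM), had the lowest sum. The means of *DSG1* also fell from AH to CS to RS, with 34.5 ± 40.5 CPM on AH, 12.4 ± 6.11 on CS and 11.7 ± 10.0 on RS (exact permutation p = 0.370 for AH against CS and 0.266 for AH against RS). Its medians were 11.6, 11.3 and 8.24 CPM. None of these markers was at 0 in any cow. No marker of basal keratinocytes or smooth muscle could be paired. The part of other cell types in the differences of the enzyme genes was not tested.

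Other genes of glucuronidation, epoxide metabolism and their regulation could be followed only in part, because the tables used pair few identifiers with symbols. In the glucuronidation list of 22 genes and the list of 24 genes of epoxide and fatty acid epoxide metabolism, only *UGT2B17* and *EPHX2* themselves had a row that could be named. No row could be named for 52 genes of oxidation, reduction and hydrolysis, 43 of glutathione, sulfate, methyl and acetyl conjugation, 18 transporters and 20 xenobiotic and lipid sensing regulators. Of 32 genes of the lipid-sensing receptors called PPARs and of peroxisomal lipid metabolism, a group that includes known targets of PPAR alpha, 2 had a row, and limma called neither in any comparison. *PDK4*, whose product spares glucose by inhibiting pyruvate dehydrogenase, averaged 140.1 ± 82.1 CPM (SD, n = 6) on AH, 65.6 ± 49.3 on CS and 56.7 ± 24.1 on RS. Its log2 ratio for AH was 1.09 against CS (SE 0.56, exact permutation p = 0.0952) and 1.31 against RS (SE 0.43, exact permutation p = 0.0260). In AH vs. RS, 1.36% of all tested genes were higher on AH at an exact p under 0.05. *FABP4* averaged 471 ± 279.8 CPM on AH, 459 ± 240.5 on CS and 231 ± 139.7 on RS, lowest on RS as *UGT2B17* was, with exact permutation p of 0.0866 for AH against RS and 0.0606 for RS against CS.

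The identity of *UGT2B17* carries a further limit. The UGT2B genes are close copies of each other, and reads with several mapping hits were removed by the authors, so its level may be understated or shared with a copy. The RefSeq table of the newer assembly ARS-UCD2.0 holds no gene with this symbol or synonym and lists *UGT2B10*, with the synonyms UGT2B4 and UGT2B7, so the name given here is that of the study. *EPHX2* is in that table as a single gene beside *EPHX1*, *EPHX3* and *EPHX4*. The median log2 ratio of all tested genes was 0.01 for AH against CS, 0.02 for AH against RS and -0.03 for RS against CS.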

How the data were processed

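RNA from the rumen epithelium of 18 cows was read on an Illumina system in pairs of 100 bp. The authors mapped these with TopHat2 to UMD3.1, dropped reads with several mapping hits or more mismatches than 2, summed the rest by Ensembl gene with HTSeq, and deposited the values as CPM, normalized to all reads on annotated genes. Program versions are not given in the sources used here, and neither is any batch. The extraction text of the labels names rectal tissue and other kits than the study does, and which account holds was not tested.

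The values came out as multiples of 1 read (100% of them at a tolerance of 0.02), and this gave back the reads of each gene. With 3 reads as the floor of a zero, the least detectable level lay between 0.0930 and 0.186 CPM. PCR copies are not independent molecules, and intervals and floors therefore cover counting error only.

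The filter kept 13284 genes, both enzyme genes among them, which exceeded 1 CPM in 3 or more of the 6 cows of a diet. On log2(CPM + 0.5), limma 3.58.1 (R 4.3.3) was fitted to all cows with diet as the only term and an intensity trend, and Benjamini-Hochberg adjustment covered all kept genes. A call needed more than a 2-fold ratio of means beside an adjusted p under 0.05. The recovered reads went into edgeR 4.0.16 (quasi-likelihood test) and DESeq2 1.42.0, where an adjusted p under 0.05 alone made a call. Further alternatives varied pseudocount, filter, scaling, trend, effect measure and cows, and entered the replicate number as a block. Simulated data, with genes drawn independently of each other and 200 of 13284 changed on AH, were scored by an adjusted p under 0.05 alone. The 2-fold rule was not applied there. By that score limma recovered 35.8% of genes changed by 1 on the log2 scale in AH vs. RS, with 7 false among 151 calls. DESeq2 recovered 43.3%, with 28 false among 188.

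Both genes, the gene lists and the tests were chosen with earlier results of these data known. Other genes were named as the 3 most and the 3 least alike with a symbol, up to 2 of each without one, or as list members with a row. Symbols for 73 identifiers came from the study's list of differing genes. Tests of correlation drew 100000 permutations at 16 or more cows. The remaining work used scipy 1.17.1, pandas 2.3.3 and numpy 2.4.6 under Python 3.11.15, and figures were drawn in matplotlib 3.10.9. The deposited table holds no other kind of value.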

Additional observations from a re-analysis of the deposited data

Results flagged for a closer look

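Within groups of 6 cows, the most extreme cow was compared with its neighbour by Dixon's criterion for *UGT2B17*, *EPHX2* and the genes and marker sum set beside them, in 30 groups, of which chance picks out about 1 in 20. In neither enzyme gene did a cow stand apart. *PDK4* was at 161 CPM in the fourth CS cow, and the gap to the next cow was 0.64 of the range in CS. *IGLL1* was at 472 CPM in the fourth RS cow, with a gap of 0.87 of the range. The summed fibroblast markers reached 1729 CPM in the third AH cow, with a gap of 0.67 of the range.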

How the results depend on the processing

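Settings that changed only the limma fit or its filter kept the main ratio, as did leaving out a cow of the third diet. Their direction could therefore not change. Taking the limma coefficient as the effect reused the main p, so its side of the threshold was fixed too. Of 293 results under alternatives, these included, 290 kept their direction and their side of the threshold. The exceptions were *EPHX2* in AH vs. RS, called by DESeq2 (log2 fold change 1.14, adjusted p = 0.0261, in a range of 0.0261 to 0.810 over all its alternatives), which raised the calls in its list from 0 to 1, and the exact permutation p of *UGT2B17* in AH vs. RS, which lay between 0.0130 and 0.160 with single cows left out. The cause was not tested. With AH compared to CS, log2 ratios of *EPHX2* ran from 0.75 to 1.12 over all alternatives, and compared to RS from 0.90 to 1.27. Those of *UGT2B17* ran from -0.45 to -0.06 and from 0.72 to 1.09, and for RS against CS from -1.35 to -1.01.

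Over all genes, those with an adjusted p under 0.05 numbered 1 for AH against CS and 1 for AH against RS with limma, and 5 and 8 with DESeq2. Without the sixth RS cow, 5 genes passed in AH vs. RS, and 6, in place of 0, in RS vs. CS. Under the other settings each of these counts lay between 0 and 2.

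Same-numbered cows of different diets are not stated to be paired. For rumen fermentation, papilla width and qRT-PCR the study names a randomized complete block design, without saying which cows formed a block. The main tests here took no account of blocks. Their deviations from the diet means had r from -0.48 to 0.71, above 0.1 in 12 of 18 pairs of cows. With the replicate number as a block, *EPHX2* in AH vs. RS (log2 ratio 1.16) had an adjusted p from limma of 0.370, and 2 genes in place of 1 passed in that comparison. Lists in which no gene had a row gave no value. Each level of an enzyme gene rested on 236 reads or more. The gap of 0.200 CPM between the lowest AH and the highest CS cow in *EPHX2* is within counting error at this depth.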
